A study of Mus musculus with 12 samples.

Results

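The nuclear lamina of 2 kinds of mouse myeloid cell was described through 9 genes, 3 of which encode lamins (Lmna, Lmnb1 and Lmnb2) and 6 of which encode proteins that bind them at the inner nuclear membrane (Emd, Tmpo, Lemd3, Banf1, Sun1 and Sun2). These were the 9 rows of those names among the 52636 genes listed in each of the count tables deposited for the cell types. The 9 genes were chosen from the CGRP-against-saline values of these same libraries, so that their values in those contrasts are given as a description, without a p value. Neutrophils were enriched from the bone marrow of C57BL/6 J mice of 8 to 12 weeks of age. Macrophages were bone marrow monocytes of such mice that had been kept for 3 days with 10 ng/ml M-CSF, and their labels call them monocytes or macrophages. Each cell type was then exposed for 4 h to 1 nM CGRP, the calcitonin gene-related peptide that pain-sensing neurons release, or to PBS as the saline control, which made 4 groups of 3 libraries. No genotype separated the groups, and within a cell type no treatment other than CGRP did. Culture with M-CSF was given for the macrophages only. Whether the 3 libraries of a group came from separate mice or cultures is not given in the sources used here. The p values therefore measure the spread between these libraries. Library totals ran from 2719556 to 3631989 counts in saline neutrophils, from 2196558 to 3270388 in CGRP neutrophils, from 2536415 to 3477069 in saline macrophages and from 2002559 to 3259073 in CGRP macrophages. Levels are given as CPM, a gene's counts scaled to library size with TMM over the 12 libraries, and a group as mean ± SD (n = 3).

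Lamins are intermediate filament proteins that form a meshwork under the inner nuclear membrane and give the nucleus its stiffness. Emerin (Emd), MAN1 (Lemd3) and the LAP2 proteins (Tmpo) share the LEM domain, which binds BAF (Banf1), a small DNA-bridging protein, while SUN1 and SUN2 join the lamina to the nesprins of the outer membrane and through them to the cytoskeleton. Neutrophils are known for lobed, pliable nuclei with little A-type lamin and much lamin B receptor (Lbr), and macrophages for a rounder nucleus. Receptors for CGRP raise cAMP inside the cell, and CREB-driven genes are among its usual targets.

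The labelled cell types were checked against marker genes first. The summed level of 11 neutrophil markers was 163000 to 236000 CPM in the saline neutrophil libraries and 302 to 395 CPM in the saline macrophage libraries, with S100a8, a calcium-binding protein of neutrophil cytosol, the most abundant in both. Conversely, 10 macrophage markers summed to 32800 to 36800 CPM in saline macrophages and to 1910 to 1940 CPM in saline neutrophils, with Apoe in the lead. The neutrophil libraries also held RNA of immature and other marrow cells, with 4 granule genes of granulocyte progenitors (Elane the most abundant) at 3470 to 3930 CPM in saline and 3090 to 3550 CPM in CGRP libraries, 6 erythroid genes (Hbb-bs the most abundant) at 5770 to 7380 CPM in saline, and 4 eosinophil and basophil genes at 963 to 1140 CPM. In macrophages the progenitor genes summed to 5.75 to 8.09 CPM with saline, and of the genes that mark B cells Cd79a and Ms4a1 were at 0 in all 6 libraries, while Ighm, the most abundant, was at 96.7 ± 14.7 CPM with saline, against 614 ± 11.7 CPM in saline neutrophils. T cell, NK cell and dendritic cell lists summed to at most 24.1, 108 and 24 CPM in saline neutrophils and at most 0.3, 0.899 and 4.79 CPM in saline macrophages, and the platelet list, led by Pf4, to at most 169 and 977 CPM. With CGRP, 0 of 48 marker genes tested passed the limma-voom threshold in neutrophils (6 at an unadjusted p under 0.05), and 1 of 28 did so in macrophages (8 at an unadjusted p under 0.05), Apoe, which rose. Of all genes tested, 1257 of 9819 in neutrophils and 1860 of 9393 in macrophages had an unadjusted p under 0.05. All 10 macrophage markers and all 8 neutrophil markers tested in macrophages lay above their saline level with CGRP (median log2 fold changes 0.26 and 0.38), and their part in the other results was not tested.

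With CGRP, 2 of the 9 genes stood above the threshold in neutrophils, Lmnb1 and Emd, and both were higher. In macrophages 1 of the 8 that could be tested did so, again Emd. Genes called higher made up 1.51% of the 9819 genes tested in neutrophils and 3.46% of the 9393 tested in macrophages, and genes called lower made up 1.02% and 3.97%, but since the members were picked on these contrasts nothing is read from their counts. The median log2 fold change was −0.12 over the 9 genes in neutrophils, where 3 were higher and 6 lower, and −0.04 over the 8 genes in macrophages, where 4 were higher and 4 lower. Over all genes tested it was below 0.005 in both, at 0.000801 and 0.00465.

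Lmnb1, which encodes lamin B1, had the largest difference of the 9 genes with CGRP in neutrophils. Saline neutrophils had 61.3, 61.7 and 55.1 CPM from 194, 201 and 153 counts, and CGRP neutrophils had 149, 133 and 123 CPM from 458, 454 and 281 counts. Each CGRP library lay above each saline library by a wide margin. The log2 fold change was 1.20 ± 0.108 (SE), or 2.29-fold, which placed Lmnb1 at rank 26 by size among the 148 genes called higher. In macrophages the same gene had 15.5, 11.4 and 10.1 CPM with saline and 19.7, 12.9 and 10.1 CPM with CGRP. There the groups overlapped, and the log2 fold change of 0.22 ± 0.286 (SE) was smaller than its error and did not reach the threshold. Lmnb1 levels thus ran from 12.3 ± 2.83 CPM in saline macrophages and 14.2 ± 4.97 CPM in CGRP macrophages, which did not differ beyond their spread, through 59.4 ± 3.7 CPM in saline neutrophils to 135 ± 13 CPM in CGRP neutrophils.

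The CGRP effect on Lmnb1 was lower in macrophages than in neutrophils by 0.96 ± 0.293 (SE) on the log2 scale in a fit over the 12 libraries. That difference is built from the contrasts that chose the genes and is therefore a description as well. It was not among the 2.36% of 10694 genes past the threshold. Fits that each dropped 1 of the 12 libraries gave −1.25 to −0.78, and the value of −1.25, without the first CGRP macrophage library, was the 1 that lay past it. The log2 fold change of Lmnb1 itself had an SE of 0.286 in macrophages and 0.108 in neutrophils.

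The other lamin genes did not pass the threshold with CGRP in either cell type. Lmna, whose transcripts encode lamins A and C, had 50.3, 66.3 and 65.2 CPM in saline neutrophils and 79.7, 66 and 74.1 CPM in CGRP neutrophils, with 1 CGRP library inside the saline range. Its log2 fold change was 0.29 ± 0.127 (SE) in neutrophils and 0.13 ± 0.134 (SE) in macrophages, and neither reached the threshold. Lmnb2, the gene of lamin B2, ran from 22.4 to 27.7 CPM in saline neutrophils and from 19.4 to 23.7 CPM in CGRP neutrophils, for a log2 fold change of −0.12 ± 0.174 (SE). In macrophages it ran from 8.27 to 14.1 CPM with saline and from 6.89 to 12.2 CPM with CGRP, again with overlapping groups. Its log2 fold change there was −0.36 ± 0.311 (SE). Counts of a whole gene do not separate lamin A from lamin C transcripts.

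**Figure D1:**
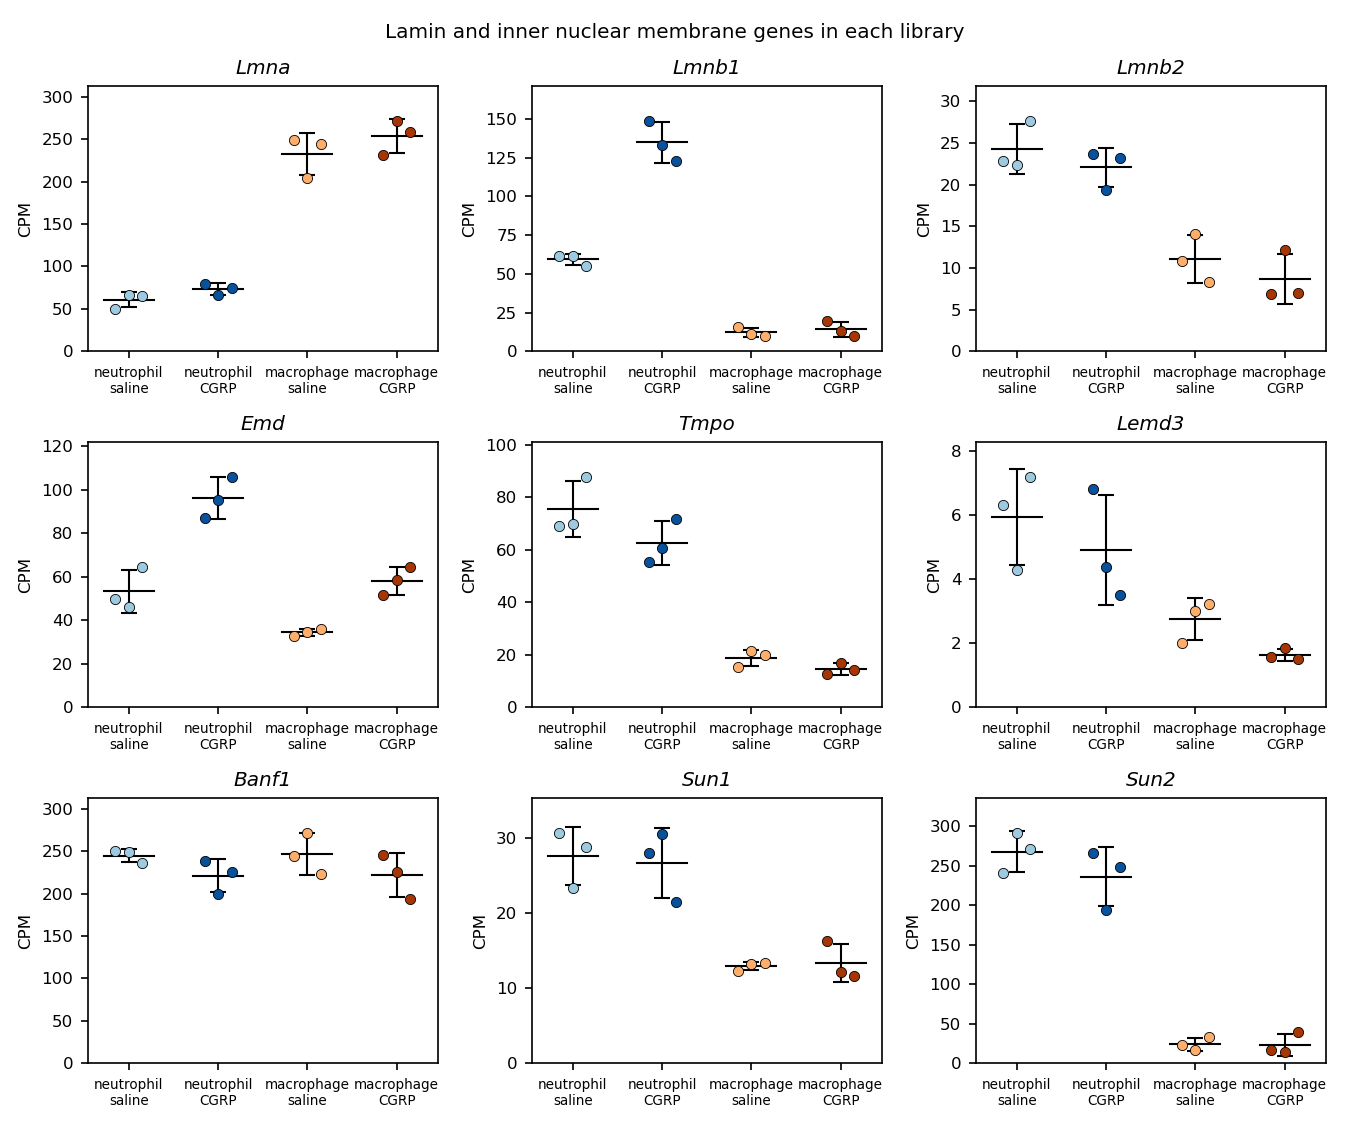
Levels of the 9 genes in CPM (vertical axes, linear, each from 0 and scaled per gene) in the 12 libraries, grouped as saline and CGRP neutrophils and saline and CGRP macrophages, with points for libraries, long bars for group means and error bars for SD (n = 3). In neutrophils the CGRP points of Lmnb1 (123 to 149 CPM) and Emd (87.1 to 106 CPM) lie above all saline points, and in macrophages this holds for Emd (51.4 to 64.4 CPM).

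Emd, which encodes emerin, was higher with CGRP in both cell types. In neutrophils the saline libraries had 49.6, 46 and 64.5 CPM from 157, 150 and 179 counts, and the CGRP libraries had 87.1, 95.3 and 106 CPM from 268, 325 and 241 counts. Saline macrophages had 32.7, 34.5 and 36 CPM from 114, 115 and 100 counts, and CGRP macrophages had 51.4, 58.4 and 64.4 CPM from 164, 158 and 128 counts. The groups did not overlap in either cell type, which was also so for 8.10% of genes in neutrophils and 11.6% in macrophages with CGRP on the higher side. The log2 fold change was 0.87 ± 0.131 (SE) in neutrophils and 0.74 ± 0.162 (SE) in macrophages, and the effect in macrophages was lower by 0.12 ± 0.21 (SE), a difference smaller than its error. In macrophages Emd no longer reached the threshold when the first saline library (0.71) or the second CGRP library (0.73) was left out, although its fold change hardly moved. Emd levels ran from 34.4 ± 1.63 CPM in saline macrophages through 53.4 ± 9.78 CPM in saline neutrophils and 58.1 ± 6.51 CPM in CGRP macrophages, whose libraries overlapped, to 96 ± 9.28 CPM in CGRP neutrophils.

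The DNA before the start sites of Emd and Sun2 is shown because Emd was higher with CGRP in both cell types and Sun2 had the largest difference between the cell types among the 9 genes. The 250 bases before each RefSeq start site are given 5′ to 3′ on the strand of the gene, at chrX:74254437-74254686 (plus strand) and chr15:79742537-79742786 (minus strand) of GRCm38.p6, with each CCAAT, the core of the CCAAT box that NF-Y binds, in capitals.
Emd: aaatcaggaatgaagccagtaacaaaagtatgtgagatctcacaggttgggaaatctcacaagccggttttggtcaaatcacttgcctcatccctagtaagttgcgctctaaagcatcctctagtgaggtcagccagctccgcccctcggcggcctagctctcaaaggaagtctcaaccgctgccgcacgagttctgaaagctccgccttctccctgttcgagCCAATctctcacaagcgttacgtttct
Sun2: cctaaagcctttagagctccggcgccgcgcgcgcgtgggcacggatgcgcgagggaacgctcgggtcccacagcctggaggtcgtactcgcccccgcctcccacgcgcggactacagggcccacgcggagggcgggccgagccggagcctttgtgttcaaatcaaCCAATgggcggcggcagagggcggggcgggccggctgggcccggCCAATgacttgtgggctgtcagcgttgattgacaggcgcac
GC made up 51.2% of the Emd stretch and 70.8% of the Sun2 stretch. The first base of CCAAT lay 27 bases before the start of Emd and 85 and 41 bases before that of Sun2.

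RefSeq windows, which reach from 250 bases before to 50 bases after a start, were found for 8 of the 9 genes, 13 windows in all, and Lmnb1 was not among them. CCAAT was found on either strand in 8 of the 13 windows, against 37.41% of all 32851 windows. Those windows belonged to 7 of the 8 genes, some of which had more than 1 window, and no share per gene was computed for comparison. The full cAMP response element TGACGTCA, the site of CREB, was in 0 of the 13 windows and in 1.79% of all windows, and its shorter form TGACG, which TGACGTCA contains, was in 2 of 13, those of Lemd3 and Sun1, and in 20.81% of all. Of the E2F motif forms searched on both strands, TTTCCCGC was in 1 window each of Banf1 and Tmpo (1.07% of all windows) and TTTGGCGC was in 0 of 13 (0.51%). A match of letters is a description only.

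Among the other LEM-domain genes, Tmpo had 68.9, 70 and 87.9 CPM in saline neutrophils and 55.3, 60.7 and 71.9 CPM in CGRP neutrophils, with the highest CGRP library inside the saline range. Its log2 fold change was −0.26 ± 0.13 (SE) there and −0.34 ± 0.235 (SE) in macrophages, neither past the threshold. Lemd3 was near the lower limit of detection, with 20, 14 and 20 counts in saline and 21, 15 and 8 counts in CGRP neutrophils. In saline macrophages the counts were 7, 10 and 9, in CGRP macrophages they were 5, 5 and 3, and the filter on low counts left it out of that fit. Its CGRP macrophage levels of 1.51 to 1.85 CPM were below the saline levels of 2.01 to 3.24 CPM, at or little above the 3 counts that were taken as the floor. Of the genes tested in macrophages, 12.5% had groups that did not overlap, with CGRP on the lower side. Banf1 ran from 236 to 250 CPM in saline and from 200 to 238 CPM in CGRP neutrophils, with a log2 fold change of −0.14 ± 0.0865 (SE), and the value in macrophages was −0.15 ± 0.138 (SE).

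The SUN genes did not pass the threshold with CGRP in either cell type. Sun2 had 241, 292 and 271 CPM in saline and 266, 194 and 248 CPM in CGRP neutrophils, a log2 fold change of −0.18 ± 0.105 (SE). In macrophages it had 23.2, 16.5 and 32.7 CPM with saline and 16.3, 14.8 and 39.2 CPM with CGRP, so that 1 library of each group stood above the rest and the log2 fold change of −0.18 had an SE of 0.315. Sun1 had fold changes of −0.01 ± 0.174 (SE) in neutrophils and 0.06 ± 0.244 (SE) in macrophages on the log2 scale.

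**Figure D2:**
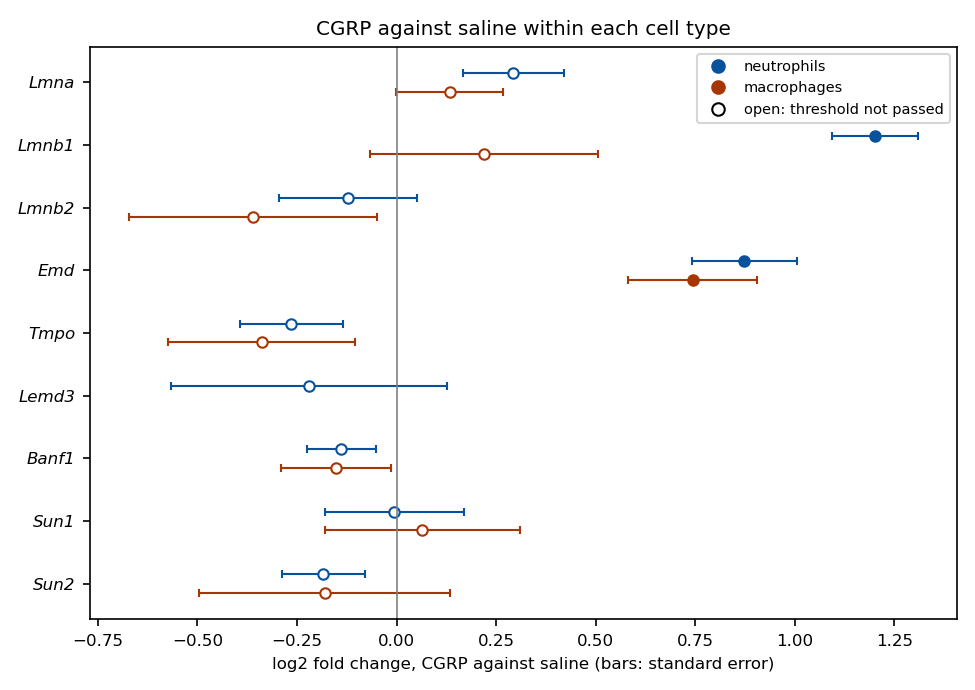
Log2 fold change of CGRP against saline (horizontal axis) for the 9 genes, with neutrophils in blue and macrophages in brown, from limma-voom on 6 libraries each, where bars are standard errors and filled points passed the adjusted threshold. The filled points are Lmnb1 in neutrophils (1.20) and Emd in neutrophils (0.87) and macrophages (0.74), and Lemd3 has no macrophage point because it was filtered out.

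The saline libraries were then compared between cell types, a contrast without CGRP libraries. The same saline libraries were part of the contrasts from which the 9 genes were chosen. Of the 9 genes, 7 were lower in macrophages, 1 was higher (Lmna) and Banf1 did not pass the threshold. Most genes differed between these cells, as 33.0% of the 10186 genes tested were called higher in macrophages and 35.5% lower. The groups of saline libraries did not overlap for 8 of the 9 genes and for 71.1% of all genes. Their median log2 fold change was −1.07, against −0.03 over all genes. Cell type, isolation and the 3 days of culture with M-CSF cannot be told apart in this contrast, and in bulk RNA fewer cells of a type cannot be told apart from less RNA per cell.

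Lmna was the member that was higher in macrophages. Its saline levels were 249, 204 and 244 CPM there, against 50.3 to 66.3 CPM in neutrophils, a 3.85-fold difference (log2 1.95 ± 0.139 SE, limma-voom adjusted p = 5.18e-10). B-type lamins went the other way. Lmnb1 was lower in macrophages by a log2 fold change of −2.26 ± 0.196 (SE, limma-voom adjusted p = 8.06e-09), and Lmnb2 by −1.12 ± 0.227 (SE, limma-voom adjusted p = 0.000252). Thus all 3 lamin genes differed between the cells, and no saline library of one cell type fell in the range of the other for any of them.

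Sun2 had the largest difference of the 9 genes between cell types, with a mean of 268 ± 25.5 CPM in saline neutrophils and 24.1 ± 8.16 CPM in saline macrophages (log2 −3.53 ± 0.185 SE, limma-voom adjusted p = 6.64e-12). Among all genes tested, 7.99% differed by more in either direction. Sun1 was lower as well, at 12.3 to 13.3 CPM against 23.3 to 30.7 CPM (log2 −1.07 ± 0.202 SE, limma-voom adjusted p = 0.000121). Tmpo stood at 75.6 ± 10.7 CPM in neutrophils and 18.8 ± 3.16 CPM in macrophages (log2 −2.01 ± 0.181 SE, limma-voom adjusted p = 1.44e-08). The difference in Emd was the smallest of those called, with a log2 fold change of −0.61 ± 0.16 (SE, limma-voom adjusted p = 0.00237).

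Lemd3 was lower in macrophages by −1.07 ± 0.385 (log2, SE) with a limma-voom adjusted p of 0.0199, on 7 to 20 counts per library. That call was lost with DESeq2 (adjusted p = 0.0968) and without the first saline neutrophil library (limma-voom adjusted p = 0.0552), the third saline neutrophil library (0.0654) or the first saline macrophage library (0.089). Banf1 had 250, 249 and 236 CPM in neutrophils and 245, 272 and 223 CPM in macrophages. Its log2 fold change was 0.01 ± 0.112 (SE), with a 95% interval of −0.23 to 0.24 (limma-voom adjusted p = 0.958).

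Partners of the members at the nuclear envelope were taken from gene lists. Of the 4 LINC partners tested, which span or anchor to the outer membrane, 3 nesprin genes were lower in saline macrophages and none was higher: Syne1 fell from 182 ± 30.6 to 6.49 ± 0.754 CPM (log2 −4.78 ± 0.254 SE, limma-voom adjusted p = 7.88e-12), Syne2 by −3.51 ± 0.404 (log2, SE, limma-voom adjusted p = 3.81e-07) and Syne3 by −1.59 ± 0.285 (log2, SE, limma-voom adjusted p = 7.36e-05). Sun2 was thus lower together with these nesprins, the proteins its product binds. Among 14 other genes of the inner membrane and the space beside it, 8 were lower and 2 higher in macrophages. Lbr, the lamin B receptor that holds heterochromatin at the nuclear rim, had 637, 690 and 670 CPM in saline neutrophils and 48.2, 39 and 59 CPM in saline macrophages (log2 −3.79 ± 0.139 SE, limma-voom adjusted p = 4.09e-14). Its level with CGRP was 644 ± 31.7 CPM in neutrophils and 43.3 ± 10.6 CPM in macrophages, close to the saline means. Vrk1, a kinase that phosphorylates BAF, was lower by −2.83 ± 0.194 (log2, SE, limma-voom adjusted p = 2.89e-10) and Nrm, the gene of nurim, by −2.50 ± 0.191 (log2, SE, limma-voom adjusted p = 1.39e-09). The torsin gene Tor3a (1.38 ± 0.173 on the log2 scale, SE, limma-voom adjusted p = 1.14e-06) and Tor1aip2, the gene of a torsin activator (0.70 ± 0.185, limma-voom adjusted p = 0.00254), were the 2 that were higher.

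Of 10 genes for lamin processing and the lipins that shape the envelope membrane, 2 were lower and 4 higher in saline macrophages. Zmpste24, the protease that cuts prelamin A, stood at 115 ± 5.07 CPM in neutrophils and 47 ± 8.59 CPM in macrophages (log2 −1.32 ± 0.145 SE, limma-voom adjusted p = 2.08e-07), and so was lower where Lmna was higher. Narf, whose product binds prelamin A, was lower by −1.52 ± 0.185 (log2, SE, limma-voom adjusted p = 7.75e-07). Lpin1 was higher by 1.67 ± 0.232 (log2, SE, limma-voom adjusted p = 3.82e-06), Cnep1r1, a partner of the phosphatase that acts on lipins, by 0.92 ± 0.166 (limma-voom adjusted p = 7.69e-05), and Fnta, a subunit of the farnesyltransferase that modifies lamins, by 0.59 ± 0.18 (limma-voom adjusted p = 0.00739). The 4 that were higher became 2 without the second saline neutrophil library, where Fnta lost its call, and 6 without the second saline macrophage library.

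Of 29 nuclear pore genes, 11 were lower and 2 higher in macrophages. Nup210 had 40.4 ± 3.62 CPM in saline neutrophils and 0.97 ± 0.437 CPM in saline macrophages, where it was at about the floor of 3 counts (limma-voom adjusted p = 4.33e-09). Nup107 (log2 −1.82 ± 0.278 SE, limma-voom adjusted p = 1.22e-05) and Tpr, of the nuclear basket (−0.67 ± 0.144, limma-voom adjusted p = 0.000427), were also lower, while Nup93 (0.73 ± 0.187, limma-voom adjusted p = 0.00208) and Sec13 (0.45 ± 0.117, limma-voom adjusted p = 0.00251) were higher. Of 9 chromatin partners of the lamina, 5 were lower, with Ezh2, the H3K27 methyltransferase, at −1.90 ± 0.201 (log2, SE, limma-voom adjusted p = 1.22e-07), Ctcf at −1.34 ± 0.126 (limma-voom adjusted p = 2.55e-08) and Cbx5, the gene of HP1α, at −1.25 ± 0.23 (limma-voom adjusted p = 9.1e-05). Hdac3, which binds emerin, was the 1 that was higher (0.61 ± 0.154, limma-voom adjusted p = 0.00186). Of 12 ESCRT-related genes that reseal the envelope, 1 was lower, Ist1 (log2 −0.36 ± 0.121 SE, limma-voom adjusted p = 0.0131), and 2 were higher, Chmp7 (1.31 ± 0.375, limma-voom adjusted p = 0.0046), whose groups overlapped and whose value ran from 0.78 to 1.81 over the other settings and leave-outs, and Chmp3 (0.41 ± 0.131, limma-voom adjusted p = 0.00932). None of the 3 passed without the second saline neutrophil library. Ist1 also fell short with library totals without TMM, and Chmp3 without the first saline macrophage library.

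**Figure D3:**
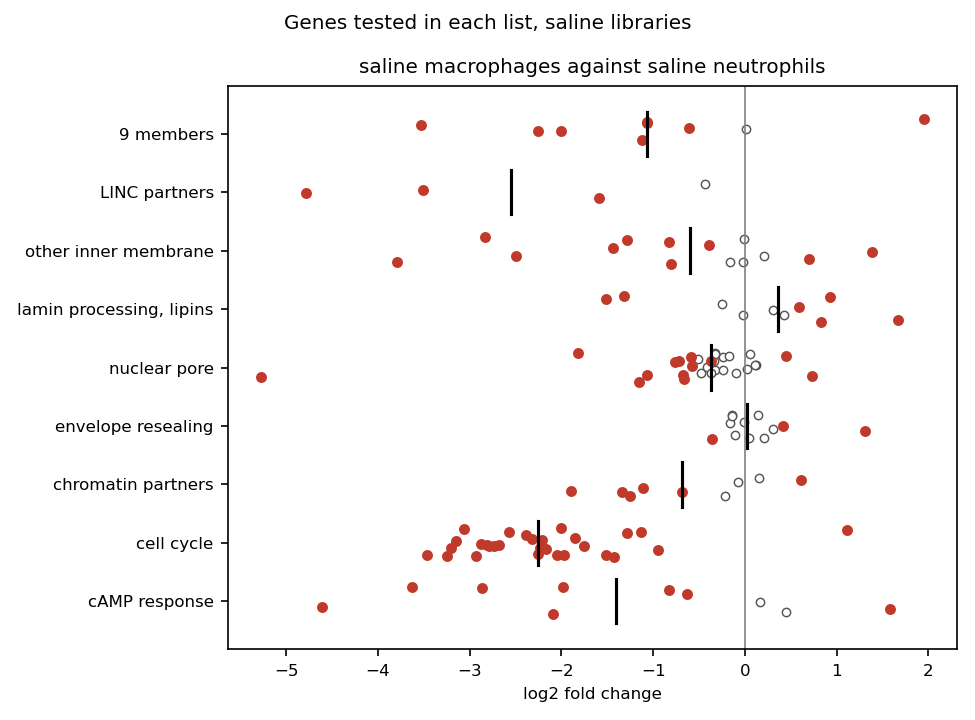
Log2 fold change of saline macrophages against saline neutrophils (horizontal axis) for each gene tested in the 9 members and 8 lists, where filled points passed the limma-voom threshold, open points did not, and vertical bars are list medians. Members lie mostly left of 0, with Lmna (1.95) on the right, and the cell cycle genes lie left of 0 apart from Pcna (1.11).

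Cell cycle genes were listed because the lamina is taken down and rebuilt at each division. In saline macrophages 28 of 29 were lower than in saline neutrophils and Pcna, the sliding clamp of DNA replication, was higher, and all 29 passed the threshold (median log2 fold change −2.26). Top2a had 353 ± 2.82 CPM in neutrophils and 46.2 ± 9.27 CPM in macrophages (log2 −2.93 ± 0.141 SE, limma-voom adjusted p = 1.95e-12), Rrm2 differed by −3.20 ± 0.164 (log2, SE, limma-voom adjusted p = 4.71e-12) and Ccnb2 by −2.74 ± 0.163 (log2, SE, limma-voom adjusted p = 4.15e-11). These genes and those of granulocyte progenitors were lower in macrophages alongside Lmnb1, Lmnb2 and Tmpo, and their part in the difference of the lamina genes was not tested.

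With CGRP no cell cycle gene passed the threshold in neutrophils. There 0 of 29 passed in limma-voom, edgeR or DESeq2 (2 of 29 at an unadjusted p under 0.05), 22 were below and 7 above their saline level, and the median log2 fold change was −0.08. In macrophages all 29 were below their saline level and 11 fell past the threshold (median log2 fold change −0.73). Whether cell cycle genes and the Lmnb1 values are linked was not tested. Pcna fell from 201 ± 43 to 92.6 ± 25.6 CPM (log2 −1.11 ± 0.196 SE, limma-voom adjusted p = 0.00178), Ccna2, the gene of cyclin A2, from 19.4 ± 1.68 to 7.3 ± 1.55 CPM (log2 −1.37 ± 0.267 SE, limma-voom adjusted p = 0.00391) and Rrm2 from 24.5 ± 6.23 to 11.7 ± 3.28 CPM (log2 −1.05 ± 0.272 SE, limma-voom adjusted p = 0.0262). The count of 11 dropped to 2 without the first saline library, to 6 without the second, and to 2 without either the second or the third CGRP library, and it was 7 with DESeq2, 13 with edgeR, 6 with counts thinned to the smallest library and 19 with limma's sample weights. Pcna and Ccna2 passed in each of the 6 leave-outs. Rrm2 passed in 2, those of the third saline and the first CGRP library, and it fell short with thinned counts.

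Of the cAMP response genes, some were called higher with CGRP in each cell type and none lower. In neutrophils 4 of 10 were, with Fos at 1.30 ± 0.126 (log2, SE, limma-voom adjusted p = 1.69e-06), Nr4a2 at 1.47 ± 0.216 (limma-voom adjusted p = 0.000279) and the phosphodiesterase gene Pde4b at 0.60 ± 0.119 (limma-voom adjusted p = 0.00501). In macrophages 5 of 7 were, with Crem rising from 13.8 ± 1.33 to 178 ± 12.6 CPM (log2 3.68 ± 0.186 SE, limma-voom adjusted p = 5.4e-09), Pde4b by 3.45 ± 0.186 (limma-voom adjusted p = 7.99e-09) and Nr4a2 by 4.22 ± 0.39 (limma-voom adjusted p = 3.38e-06). The others did not pass, among them Nr4a1 in neutrophils (−0.06) and Dusp1 in macrophages (−0.03). The saline macrophage level of Nr4a2 was 2.4 ± 1.43 CPM, little above the floor, against 40.7 ± 2.76 CPM with CGRP. The count in neutrophils dropped to 2 without the second saline library, where Pde4b lost its call (0.535, limma-voom adjusted p = 0.0633). Between the saline groups, 7 of 10 were lower in macrophages and 1, Fos, was higher (log2 1.58 ± 0.133 SE, limma-voom adjusted p = 5.57e-09). Those lower included Pde4b (−2.09 ± 0.186, limma-voom adjusted p = 1.14e-08) and Dusp1 (−0.83 ± 0.131, limma-voom adjusted p = 1.77e-05). Areg was also lower, at 6.71 ± 2.09 CPM in neutrophils and 0.2 ± 0.346 CPM in macrophages, below the floor.

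Of the envelope lists, 2 held a gene that rose with CGRP, both in macrophages. Lpin2, a lipin phosphatidate phosphatase, rose from 57.6 ± 4.91 to 150 ± 10.4 CPM (log2 1.39 ± 0.142 SE, limma-voom adjusted p = 9.16e-06) and was at 46.7 ± 3.86 and 51 ± 4.76 CPM in saline and CGRP neutrophils. Ist1, an ESCRT-III protein of envelope resealing, rose from 106 ± 9.86 to 205 ± 8.9 CPM (log2 0.96 ± 0.132 SE, limma-voom adjusted p = 0.00018) and was at 136 ± 8 and 146 ± 9.59 CPM in neutrophils. Both held in each of 6 leave-outs. The number called in macrophages rose from 1 to 2 in the lamin processing list without the second saline or the first CGRP library, and from 1 to 2 in the resealing list without that CGRP library. No LINC partner, other inner membrane gene, nuclear pore gene or chromatin partner passed in either cell type in limma-voom, edgeR or DESeq2. At an unadjusted p under 0.05 the numbers in neutrophils were 0 of 4, 1 of 14, 2 of 28 and 1 of 9, and in macrophages 2 of 3, 4 of 14, 2 of 27 and 3 of 9, in the order just given. The numbers over all genes tested, given above for the marker genes, were 1257 of 9819 and 1860 of 9393. With limma's sample weights, macrophages had 1 LINC partner, 2 pore genes and 1 chromatin partner called lower and 1 inner membrane gene and 3 lamin processing genes called higher. A LINC partner was called lower in macrophages without the second saline library and a pore gene without the third, and a pore gene was called higher in neutrophils without the third saline library. In neutrophils 0 of 10 lamin processing genes and 0 of 12 resealing genes passed in those same 3 tools, with 2 and 0 at an unadjusted p under 0.05. A processing gene was called higher there with thinned counts, and a resealing gene without the first CGRP library.

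**Figure D4:**
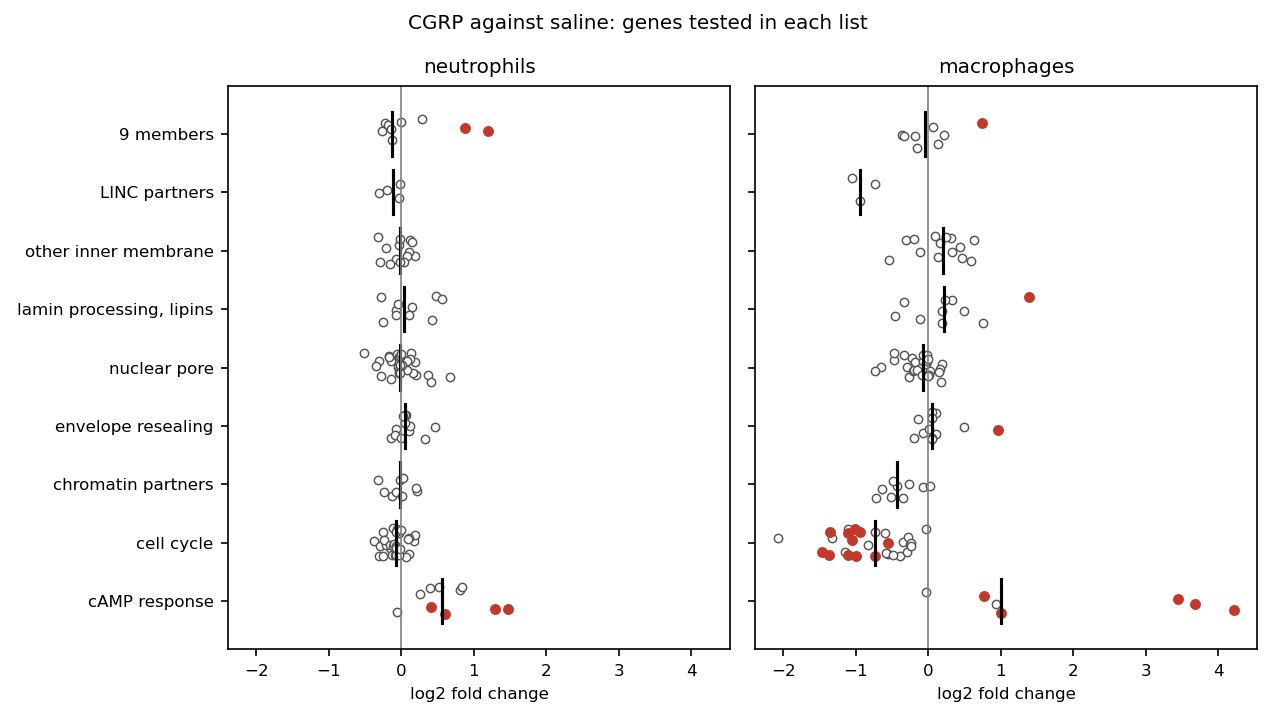
Log2 fold change of CGRP against saline (horizontal axis, the same in both panels) for each gene tested in the 9 members and 8 lists, with neutrophils on the left and macrophages on the right, where filled points passed the limma-voom threshold, open points did not, and vertical bars are list medians. Cell cycle genes lie about 0 in neutrophils and below 0 in macrophages, and the cAMP response list reaches furthest to the right, up to 4.22 for Nr4a2 in macrophages.

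Genes whose levels ran most like those of Lmnb1 and Emd were sought by Pearson's r of log2 CPM. These values are descriptions, since the 12 libraries fall into 2 cell types and treatment moves many genes together. For Lmnb1 over 12 libraries they were Tirap (r = 0.984), Sbno1 (0.983), Ccdc189 (0.983), Dusp1 (0.982) and Dmkn (0.981), and over the 6 neutrophil libraries Hdc, the histamine-forming enzyme (0.999), Lilr4b (0.997), Tgm2 (0.996), 9830107B12Rik (0.996) and Clec4e (0.995). Hdc went from 359 to 942 CPM and Tgm2 from 53.9 to 149 CPM with CGRP in neutrophils. For Emd over 12 libraries they were Slc7a11, of the cystine transporter (0.948), Prkar1a, a regulatory subunit of protein kinase A (0.935), Blcap (0.919), Sik3 (0.918) and Emilin2 (0.917), and over the 6 macrophage libraries Gdi2 (0.999), P2ry14 (0.996), Slc25a28 (0.996), Cdk2ap2 (0.995) and Etv6 (0.993). Slc7a11 had log2 fold changes of 1.02 in neutrophils and 1.17 in macrophages, and Prkar1a had 0.63 and 0.39.

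Reads near the 3′ end of a transcript were counted, so sequence shared there bears on each gene. Of the 31-base words in the last 500 bases of its transcripts, Lmnb1 and Lemd3 shared 0% with another annotated gene, Lmna 0.93%, Lmnb2 2.403%, Tmpo 5.244%, Banf1 5.254%, Sun2 6.538% and Sun1 7.311%. Emd shared 20.922%, nearly all of it in 1 transcript, Emd-202, whose end runs into the pseudogene Gm14686 and resembles Eif1. Gm14686 had 0 counts, and Eif1 did not pass with CGRP in neutrophils (log2 0.21 ± 0.0764 SE, limma-voom adjusted p = 0.183) or macrophages (0.07 ± 0.125, limma-voom adjusted p = 0.809). Eif1 was lower in saline macrophages than in saline neutrophils (−0.40 ± 0.11, limma-voom adjusted p = 0.00344), the direction that Emd also had. The part of shared sequence in the Emd values was not tested. Banf1 overlaps Eif1ad on the opposite strand over 428 bases, and Eif1ad reached 247 counts in a library. Whether the counting used strand is not given in the sources used here. The other genes that overlap a member reached at most 8 counts in any library.

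In GRCm38 the lamin genes lie at chr3:88480147-88509956 on the minus strand (Lmna), chr18:56707813-56753424 on the plus strand (Lmnb1) and chr10:80901203-80918245 on the minus strand (Lmnb2). Emd lies at chrX:74254687-74261548 and Sun1 at chr5:139200637-139249840, both on the plus strand. Tmpo (chr10:91147571-91181315), Lemd3 (chr10:120923413-120979332), Banf1 (chr19:5364638-5367168) and Sun2 (chr15:79724070-79742536) are on the minus strand. All 9 are annotated as protein-coding, and counts were made over whole genes, so that Tmpo and Lmna isoforms were not resolved.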

How the data were processed

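RNA from 12 libraries was sequenced at the 3′ end, with unique molecular identifiers of 10 bases that mark PCR copies. The authors processed reads with nfCore/RNAseq 3.2, aligned them to GRCm38 with STAR (version not given in the sources used here) and quantified genes with featureCounts. The deposited values are these raw counts, one table a cell type. Annotation release, strand setting and any filter on low counts are not given in the sources used here.

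The 9 members and the gene lists were chosen with earlier results of these data known. Each comparison used 6 libraries: genes were kept by filterByExpr, scaled by TMM and tested with limma-voom (limma 3.58.1, edgeR 4.0.16, R 4.3.3; two-sided, Benjamini–Hochberg adjustment over all genes tested, threshold 0.05). TMM, limma-voom and the threshold follow the study's methods. The CGRP effect was compared between cell types by an interaction term over the 12 libraries. Up to 3 genes per list, comparison and direction were named, those with the smallest adjusted p among genes past the threshold, together with all members, Lbr, the 5 genes most like the member with the largest change in each cell type, the genes sharing sequence with a member and the most abundant marker. The floor of 3 counts was 0.826 to 1.50 CPM and covers counting error only. Positions came from GENCODE (52489 of 52636 identifiers found) and windows before start sites from RefSeq (GRCm38.p6).

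The same comparisons were repeated with DESeq2 1.42.0, edgeR's quasi-likelihood test, other scalings and filters, sample weights, a replicate block, thinning, a single fit over 12 libraries and leaving out each library. The steps were tested on simulated data. A further gene of the marker lists is not reported here.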

Additional observations from a re-analysis of the deposited data

Results flagged for a closer look

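None of the 9 genes is included here. Of the 9 list genes named for a CGRP contrast, 8 had an effect past the threshold for a difference between macrophages and neutrophils, by the interaction term in limma-voom over the 12 libraries, and Fos did not (−0.517 ± 0.184, SE, limma-voom adjusted p = 0.177). Over all 10694 genes the share was 2.36%. All 8 were named for a small adjusted p in macrophages, in lists chosen with earlier results known, so the choice partly fixes these differences and they are no independent evidence. Values are log2 differences, macrophage minus neutrophil. Crem differed by 2.88 ± 0.285 (SE, limma-voom adjusted p = 1.29e-06), as it rose by 3.68 in macrophages and stood at 0.81 in neutrophils. Pde4b differed by 2.86 ± 0.209 (limma-voom adjusted p = 1.98e-08). Nr4a2 differed by 2.75 ± 0.422 (limma-voom adjusted p = 0.000374). Pcna differed by −1.02 ± 0.247 (limma-voom adjusted p = 0.025), Ccna2 by −1.33 ± 0.27 (limma-voom adjusted p = 0.00598) and Rrm2 by −1.02 ± 0.269 (limma-voom adjusted p = 0.0443), since these cell cycle genes fell in macrophages while their neutrophil values lay between −0.07 and −0.02. Ist1 differed by 0.854 ± 0.157 (limma-voom adjusted p = 0.00235) and Lpin2 by 1.26 ± 0.186 (limma-voom adjusted p = 0.000235).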

How the results depend on the processing

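Of the values of the 9 genes under other settings, 540 kept their direction and side of the threshold or moved by less than the replicate spread. Banf1, near 0 between cell types, turned from 0.01 to −0.0159 with at least 10 counts in every library and with thinning, and lay between −0.0703 and 0.0806 over the leave-outs. Lemd3 between cell types lost its call in 4 fits, as given above, and had no value with at least 10 counts in every library. As a description of the values that chose the genes, over these settings and leave-outs the log2 fold change was 1.13 to 1.26 for Lmnb1 in neutrophils, 0.761 to 1.01 for Emd there and 0.679 to 0.83 for Emd in macrophages, where 2 leave-outs fell short of the threshold. The value of Lmnb1 in macrophages ranged from −0.0732 to 0.406. Genes called in neutrophils numbered 248, with 137 in a single fit over 12 libraries and 138 to 234 over the leave-outs. In macrophages they numbered 698, with 1406 under sample weights (voomWithQualityWeights), 1050 in the single fit and 347 to 765 over the leave-outs, and the cause was not tested. Library totals without TMM gave 150 higher and 64 lower in neutrophils (148 and 100 with TMM). Blocking on replicate number, the counts were 266, 915 and 7248 (6975 without it, between cell types), the Lmnb1 difference between cell types passed (−0.956) and the cell cycle genes called lower in macrophages rose from 11 to 16. Libraries of the same number deviated together by r = −0.0108 to 0.131 in neutrophils (other numbers −0.133 to 0.0959). The values were −0.171 to 0.256 in macrophages (other numbers −0.382 to 0.367) and 0.0718 to 0.165 between cell types in saline (other numbers −0.113 to 0.00809). Between cell types each same-number value was thus above each other one. Not every same-number pair was over 0.1 and no label names a shared source, so the libraries were not treated as pairs. Totals of 2002559 counts and up left Lemd3 on 3 to 21 counts.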
